A study of Mus musculus with 6 samples.

Results

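The genes described here are 10 members of the fibroblast growth factor (FGF) pathway, out of 16593 genes with a probe on the arrays. They are the ligands Fgf4 and Fgf8, the receptors Fgfr1 and Fgfr2, and 6 genes that ERK signalling induces, Dusp4, Dusp6, Spry2, Spry4, Etv4 and Etv5. All 17 probes annotated to them were taken. The genes were picked with the difference between REST shRNA and vector cells already known, so their values in that contrast are a description and carry no test.

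Expression was measured in E14 cells, an established mouse embryonic stem (ES) cell line, on Illumina bead arrays. In 3 samples the cells had received an shRNA against REST, and in the other 3 the empty pSuper vector, both for 72 h. REST is a repressor that keeps neuronal genes silent outside neurons, and shRNAs are hairpin RNAs used to deplete a chosen transcript. The labels do not say whether cells were selected or whether each replicate came from its own culture. The p-values therefore reflect sample-to-sample spread that could be purely technical.

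FGF ligands bind receptor tyrosine kinases, which pass the signal through Ras and the kinases Raf, MEK and ERK. ES cells make FGF4 themselves, and the ERK activity it evokes prepares them to leave the pluripotent state. ERK also switches on its own restraints and outputs. Dusp4 and Dusp6 encode phosphatases that remove the activating phosphates from ERK, Sprouty proteins such as Spry2 and Spry4 dampen the step between receptor and Raf, and Etv4 and Etv5 are ETS transcription factors.

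The ligands and the feedback genes stood on opposite sides. Fgf4 and Fgf8 were lower in REST shRNA cells, with log2 changes of -1.44 and -1.08, while the 5 feedback genes that could be measured were higher by 0.25 to 1.34. The mean change of the ligands minus that of the feedback genes was -1.99. Of the 10 genes, 9 had a probe above background on at least 3 of the 6 arrays, and of the 17 probes 13 did. Spry2 was the gene without one.

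Promoter letters are shown for Fgf4, the ligand with the larger difference, and for Dusp6 and Etv5, feedback genes that moved the other way. They are the 250 bases before the RefSeq transcription start in the GRCm38.p6 build. A promoter was kept for 5 of the 10 members, Fgf4, Fgfr2, Dusp6, Spry2 and Etv5. None was kept for Spry4, the feedback gene with the largest change. Members on a chromosome that this step left out are not counted, so the build may list promoters for them. Etv5 had 2 starts, of which the one with GC boxes is shown (the other window held 0). Capitals mark the GC box GGGCGG, a letter pattern bound by Sp1-type factors, searched on both strands. The coordinates are chr7:144861136-144861385, plus strand for Fgf4, chr10:99262981-99263230, plus strand for Dusp6, and chr16:22439571-22439820, minus strand for Etv5.
Fgf4: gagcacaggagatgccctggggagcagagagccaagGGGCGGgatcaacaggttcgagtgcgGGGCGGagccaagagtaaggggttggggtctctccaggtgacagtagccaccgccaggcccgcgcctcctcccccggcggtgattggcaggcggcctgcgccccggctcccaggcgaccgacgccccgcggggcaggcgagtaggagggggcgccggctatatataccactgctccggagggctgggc
Dusp6: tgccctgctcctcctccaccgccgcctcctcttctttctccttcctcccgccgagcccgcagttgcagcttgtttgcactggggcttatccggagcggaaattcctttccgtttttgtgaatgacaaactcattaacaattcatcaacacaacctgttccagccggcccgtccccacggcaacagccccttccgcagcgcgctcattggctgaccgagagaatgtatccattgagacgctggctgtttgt
Etv5: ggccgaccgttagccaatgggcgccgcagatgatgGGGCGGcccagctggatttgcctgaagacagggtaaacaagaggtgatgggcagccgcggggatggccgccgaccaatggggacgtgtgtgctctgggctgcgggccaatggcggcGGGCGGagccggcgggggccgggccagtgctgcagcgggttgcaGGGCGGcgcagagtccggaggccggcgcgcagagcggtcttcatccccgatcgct
The Fgf4 window held 2 GC boxes, the Etv5 window 3 and the Dusp6 window 0, and 32.7% of all 32851 promoter windows of this length held at least 1. The ETS letters CCGGAAG, present in 6.91% of windows, were in none of the 3. Neither were the pieces TTCAGCACC (0.301% of windows) and GGACAGC (5.28%) from the left and right parts of the RE1 element that REST binds. These are letter matches within this window only.

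The mean intensity per array was between 442 and 473. A probe was above background on an array when its detection p was under 0.05, which held for 46.4% to 49.0% of probes. An intensity over 0 alone was not enough, and 25.3% to 26.3% of probes were below 0. Rest could not serve as a check of the labels, since its only probe was above background on 0 of 6 arrays. Values below are log2 intensities after background correction and quantile normalization. Changes are REST shRNA minus vector, with the standard error (SE) of a linear model fitted by limma to all 12406 probes above background on at least 3 arrays. A probe is said to be called when its adjusted p in that fit is under 0.05. Each gene is represented by its brightest such probe. Over all 8740 genes measured this way, 27.0% were called, 13.9% higher and 13.1% lower, and in 45.3% the groups did not overlap. Among the 9 members measured, 5 were called higher and 2 lower, and 7 had groups that did not overlap. By probe, 25.9% of the 12406 were called and 43.3% had groups that did not overlap, and of the 13 member probes 8 were called higher, 2 lower, and 10 had no overlap. As the members were chosen on this contrast, nothing is read from these counts.

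Fgf4, the ligand that ES cells secrete, had log2 values of 6.89, 7.04 and 6.62 in the REST shRNA samples, against 7.996, 8.58 and 8.28 in the vector samples. All 3 REST shRNA samples lay well below the lowest vector sample. The mean was 6.85 ± 0.21 in REST shRNA samples and 8.28 ± 0.29 in vector samples (SD, n = 3 each), a log2 change of -1.44 ± 0.17 (SE), or 2.70-fold lower in REST shRNA cells. Before normalization the intensities were 104.0, 115.5 and 82.3 in REST shRNA samples, against 249.1, 349.4 and 285.9 in vector samples. Fgf4 was above background on all 6 arrays. Ordered from the most negative change upward, it ranked 18 of the 8740 genes.

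Fgf8, a ligand best known from gastrulation and the patterning of limb and brain, was dimmer. Its log2 values were 5.10, 5.09 and 4.73 in REST shRNA samples, against 6.10, 6.13 and 5.94 in vector samples. The groups did not overlap, and the third REST shRNA sample was the lowest and was not above background. The log2 change was -1.08 ± 0.13 (SE). With each array held at no less than its lowest value above background, the difference was 1.97-fold, against 2.12-fold without that floor. Background handling sets much of the size at this intensity. The change was -0.69 without background correction and -0.62 with a larger added constant of 50 in place of 16. In the raw intensities, Fgf8 had 18.9, 18.1 and 7.5 in REST shRNA samples, against 55.8, 51.3 and 43.8 in vector samples.

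**Figure D1:**
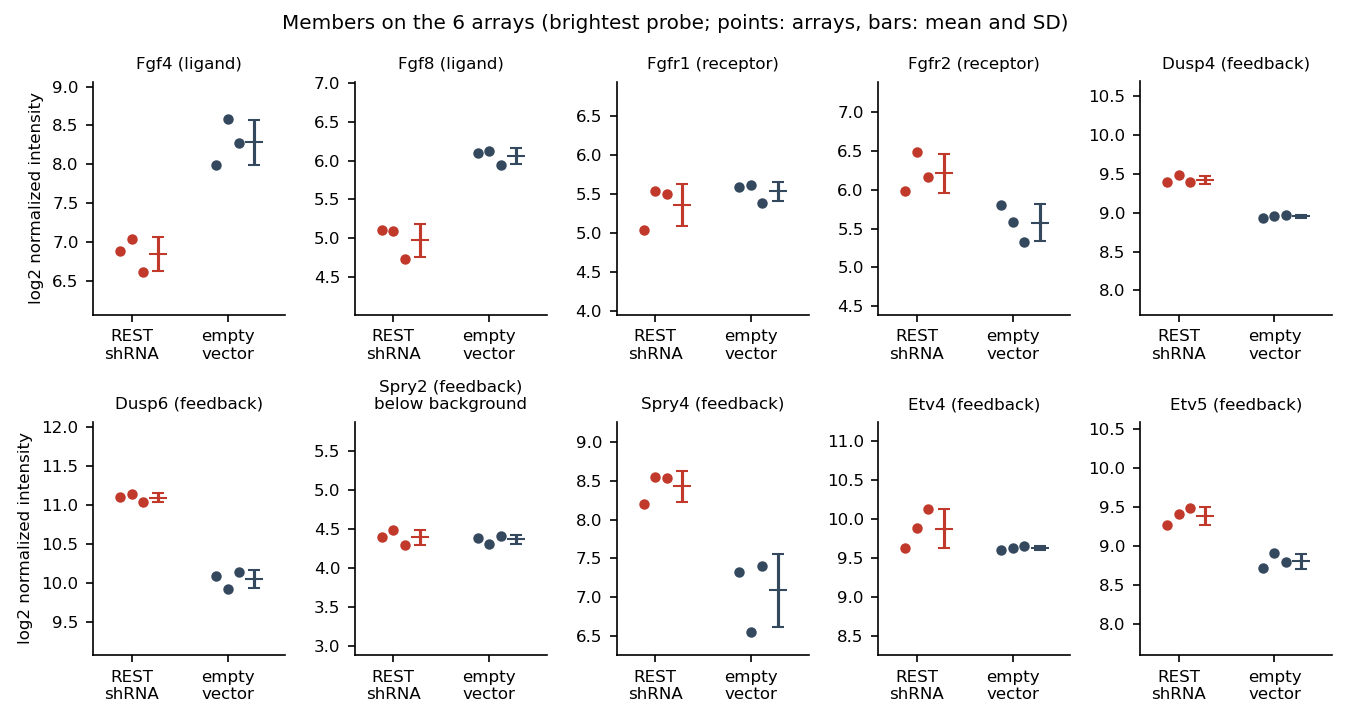
Log2 normalized intensity of the brightest probe of each of the 10 genes, with 1 point per array, the REST shRNA samples in red left of the empty vector samples in dark blue, and bars for mean and SD (n = 3). Each panel spans 3 log2 units. Fgf4 and Fgf8 lie lower in REST shRNA samples, Dusp4, Dusp6, Spry4, Etv5 and Fgfr2 lie higher without overlap, and Spry2 is below background in both groups.

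The receptors were both dim. Fgfr1, the main FGF receptor of ES cells, had log2 values of 5.04, 5.54 and 5.50 in REST shRNA samples, against 5.60, 5.62 and 5.39 in vector samples. The groups overlapped, and the log2 change of -0.17 ± 0.15 (SE) had a 95% interval of -0.51 to 0.16. Its other probe was above background on 1 array of each group and was not measured. Fgfr2, the receptor known for its part in primitive endoderm and trophectoderm, had 5.98, 6.48 and 6.16 in REST shRNA samples, against 5.81, 5.58 and 5.33 in vector samples. The lowest REST shRNA sample lay just above the highest vector sample. The log2 change was 0.64 ± 0.16 (SE), or 1.55-fold, at 1 of its 3 probes, while the 2 others were above background on no array. The call on Fgfr2 was lost without REST shRNA replicate 2 (0.50), REST shRNA replicate 3 (0.66), vector replicate 2 (0.64) or vector replicate 3 (0.52).

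Among the ERK phosphatases, Dusp6 showed the larger difference. Its brightest probe had log2 values of 11.10, 11.15 and 11.04 in REST shRNA samples, against 10.09, 9.92 and 10.15 in vector samples. Replicates lay close together and the groups were far apart. The mean was 11.09 ± 0.06 in REST shRNA samples and 10.05 ± 0.12 in vector samples (SD, n = 3 each), a log2 change of 1.04 ± 0.11 (SE) or 2.06-fold. The 2 dimmer probes of Dusp6 went the same way with smaller changes, 0.44 ± 0.11 and 0.57 ± 0.16 (SE), and both were called. The second of these was above background on all 3 REST shRNA arrays but on only 1 vector array. The REST shRNA arrays alone thus met the filter for it, so its direction adds no support. With the floor described for Fgf8 its change was 0.27. The mean over the 3 probes gave 0.68. The 2 probes above background on all 6 arrays thus share a direction, and the size depends on the probe.

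Dusp4, a nuclear phosphatase of the same family, had log2 values of 9.39, 9.48 and 9.39 in REST shRNA samples, against 8.93, 8.96 and 8.97 in vector samples. The groups did not overlap, and the log2 change was 0.47 ± 0.10 (SE) or 1.38-fold. Its second probe gave 0.43 ± 0.13 (SE) and was called. The third, above background on 2 REST shRNA arrays and 1 vector array, gave 0.22 ± 0.23 (SE) with overlapping groups and was not called.

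Spry4, an inhibitor of receptor signalling upstream of Raf, had the largest positive difference of the 9 measured members. Its log2 values were 8.19, 8.55 and 8.54 in REST shRNA samples, against 7.32, 6.55 and 7.40 in vector samples. The groups did not overlap, and the second vector sample was well below the other vector samples. The mean was 8.43 ± 0.20 in REST shRNA samples and 7.09 ± 0.47 in vector samples (SD, n = 3 each), a log2 change of 1.34 ± 0.22 (SE) or 2.52-fold. Without vector replicate 2 the change was 1.06 and was still called. Spry2 had intensities of -6.7, -1.5 and -14.9 in REST shRNA samples, against -7.1, -13.9 and -6.1 in vector samples. It was above background on 0 of 6 arrays, so no fold is given for it.

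The ETS factors Etv4 and Etv5 differed in how clearly they moved. Etv5 had log2 values of 9.26, 9.41 and 9.49 in REST shRNA samples, against 8.71, 8.90 and 8.80 in vector samples. The groups did not overlap, and the log2 change was 0.59 ± 0.11 (SE) or 1.501-fold. Etv4 had 9.62, 9.88 and 10.12 in REST shRNA samples, against 9.60, 9.63 and 9.65 in vector samples. The vector samples were nearly identical, the REST shRNA samples were spread widely, and the lowest of these lay among the vector values. The log2 change of Etv4 was 0.25 ± 0.14 (SE) with a 95% interval of -0.06 to 0.55. Etv4 was not called in the main analysis or under any other setting in which calls were recorded by gene.

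**Figure D2:**
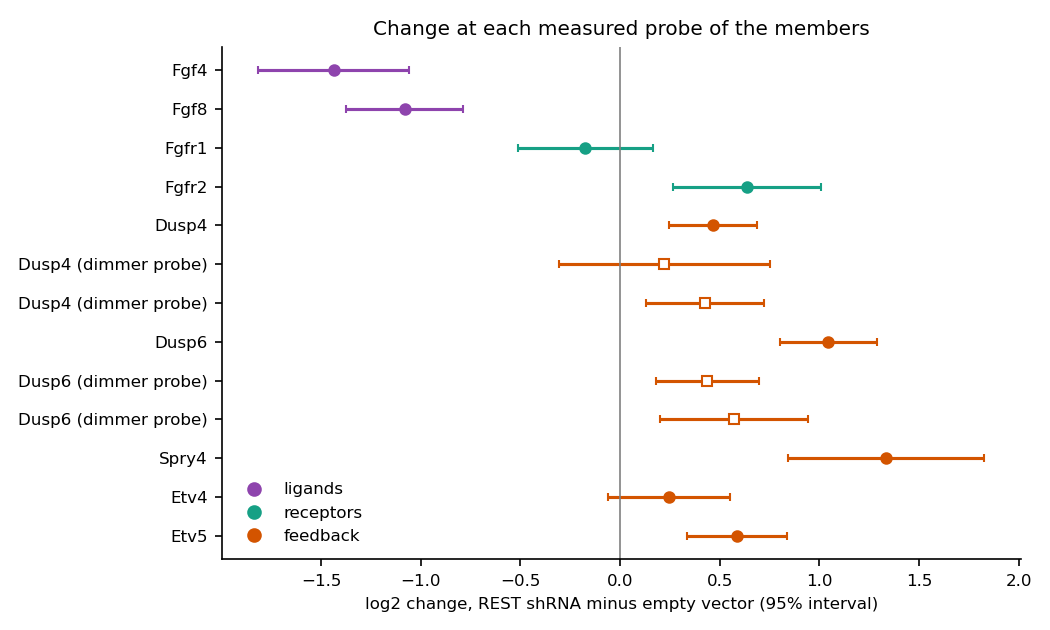
Log2 change (REST shRNA minus empty vector) with its 95% interval at each of the 13 measured probes of the members, with filled circles for the brightest probe of a gene, open squares for dimmer probes and colours for the role. Both ligand probes lie left of 0, at -1.44 and -1.08, and all 9 feedback probes lie right of it, with intervals that include 0 for Etv4 and 1 Dusp4 probe.

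Array by array, the split between ligands and feedback genes was seen in every sample. Each gene was centred on its mean over the 6 arrays, and the genes of a role were averaged. Centring makes the 2 group means of a role equal in size and opposite in sign. The genes were also picked on this contrast, so the values below are a description and carry no test. The ligands stood at -0.54, -0.48 and -0.87 in REST shRNA samples, against 0.51, 0.81 and 0.57 in vector samples. The feedback genes stood at 0.24, 0.42 and 0.44 in REST shRNA samples, against -0.34, -0.48 and -0.28 in vector samples. Ligands minus feedback was therefore -0.79, -0.90 and -1.31 in REST shRNA samples, against 0.85, 1.29 and 0.85 in vector samples. The widest split within each group was in REST shRNA replicate 3 and vector replicate 2. These arrays also correlated least of all pairs across groups over all tested probes (0.970). Leaving out each array in turn gave ligand minus feedback differences between -2.10 and -1.84. The receptors, at -0.16, 0.34 and 0.16 in REST shRNA samples against 0.03, -0.07 and -0.31 in vector samples, overlapped between the groups.

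**Figure D3:**
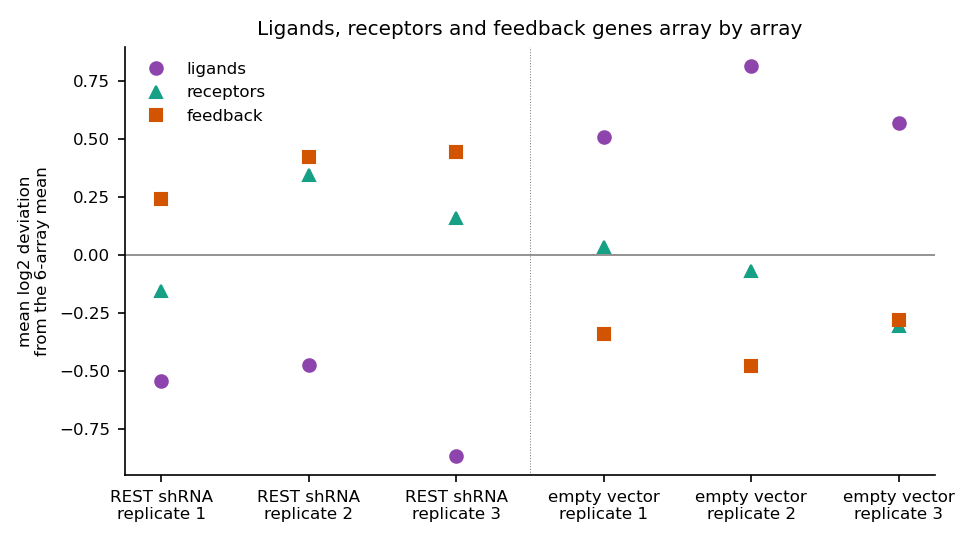
Mean log2 deviation of the ligands (2 genes), receptors (2 genes) and measured feedback genes (5 genes) from their own 6-array means, with 1 point per array and the REST shRNA samples left of the empty vector samples. Ligands lie below 0 and feedback genes above 0 in all 3 REST shRNA samples, and the other way round in all 3 vector samples.

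Genes of the wider pathway moved in both directions. Of 118 further genes of the pathway and its readouts, 103 had a probe here and 67 were bright enough to test. Among the 67, 8 rose and 15 fell while 44 did not pass the test, with a median log2 change of -0.02, beside 0.00 over all 8740 genes tested, of which 13.9% rose and 13.1% fell. In the authors' ratios 10 rose and 9 fell. Calls over all probes also leaned upward there, with 2118 higher and 907 lower, so these counts are not compared directly with those above. Scaling by medians gave 7 that rose and 14 that fell. The cause of the difference was not tested. With any single array left out, 7 or 8 rose and 10 to 13 fell.

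Other FGF ligands were mostly dim, with 12 of 20 too dim to test. Of the 8 tested 0 rose and 2 fell (median -0.05), beside 13.9% higher and 13.1% lower over all genes. Fgf15, the mouse counterpart of human FGF19, had a log2 change of -0.77 ± 0.13 (SE, n = 3 per group; limma adjusted p = 0.00380). Its log2 values were 5.48, 5.42 and 5.57 in REST shRNA samples, against 6.07, 6.21 and 6.49 in vector samples, with no overlap. The hormone-like ligand Fgf21 had -0.45 ± 0.14 (SE; limma adjusted p = 0.0481), and its call was lost with any 1 array left out (-0.53 to -0.30). The primed-state ligand Fgf5 was too dim to test.

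Receptors other than members, and the heparan sulphate genes that FGF binding needs, split evenly. Of 12 tested, 2 were higher, 2 lower and 8 not called (median 0.04), beside 27.0% called over all genes. Sulf1, a sulphatase that trims heparan sulphate and is known to damp FGF signalling, rose 1.67-fold (log2 change 0.74 ± 0.11, SE, n = 3 per group; limma adjusted p = 0.00233). The heparan sulphate 6-O-sulphotransferase Hs6st1 rose 1.57-fold (adjusted p = 0.00706). Fgfrl1, a receptor-like protein without a kinase, had a log2 change of -0.53 ± 0.12, and the glypican Gpc3 one of -0.43 ± 0.11 (SE; adjusted p = 0.0107 and 0.0202). The call on Gpc3 was lost without REST shRNA replicate 3 (-0.36), vector replicate 1 (-0.41) or vector replicate 2 (-0.42). Its second probe also gave a change of -0.43. The syndecan Sdc1 was not called at its brightest probe (-0.22) but was at a second one (-0.54). Fgfr3, Fgfr4 and the Klotho coreceptors Kl and Klb were too dim to test.

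The adaptors and kinases between receptor and ERK had 1 higher, 1 lower and 9 not called of 11 tested (median 0.14), beside 27.0% called over all genes. Map2k2, which encodes the ERK kinase MEK2, rose 1.56-fold (log2 change 0.64 ± 0.12, SE, n = 3 per group; limma adjusted p = 0.00597), while its other probe, at 0.38, was not called. The docking protein gene Frs3 had -0.68 ± 0.18 (SE; adjusted p = 0.0223). Its call was lost without REST shRNA replicate 1 (-0.61), REST shRNA replicate 3 (-0.68), vector replicate 2 (-0.49) or vector replicate 3 (-0.68). Grb2 (0.15), Ptpn11 (0.04), Sos1 (-0.11) and Gab1 (0.29), which link the receptor to Ras, did not pass the test.

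Feedback genes outside the members were mostly not called, as were most genes on the arrays (27.0% called). The 11 tested included 0 that rose, 1 that fell and 10 without a call, with a median log2 change of -0.02, set beside 0.59 over the 5 measured feedback members, which were chosen with these changes known. The difference between these sets was not tested. The gene that fell was Dusp7, a cytoplasmic ERK phosphatase like Dusp6 (-0.53 ± 0.11, SE, n = 3 per group; limma adjusted p = 0.00904). Its log2 values were 7.38, 7.52 and 7.59 in REST shRNA samples, against 8.09, 7.92 and 8.05 in vector samples, with no overlap. The Sprouty relatives Spred1 (-0.06) and Spred2 (-0.29), the ETS factor Etv1 (0.20), the receptor antagonist Il17rd (-0.06) and the phosphatase Dusp1 (-0.02) did not pass the test. Flrt3 and Dusp2 were not called at their brightest probes (0.39 and 0.25), but each had a dimmer probe that was called higher (0.57 and 0.46).

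Early genes that ERK is known to induce had 1 higher, 5 lower and 3 not called of 9 tested (median -0.35), beside 13.9% higher and 13.1% lower over all genes. Of the 5, Fos and Phlda1 were near the threshold and lost their calls with several single arrays left out. Egr1, a zinc finger factor induced within minutes of ERK activity, rose 1.66-fold, with log2 values of 11.11, 10.90 and 11.02 in REST shRNA samples, against 10.37, 9.93 and 10.55 in vector samples (limma adjusted p = 0.0117). The stress and survival gene Ier3 had a log2 change of -0.96 ± 0.13 and the AP-1 subunit Junb one of -0.65 ± 0.11 (SE, n = 3 per group; limma adjusted p = 0.00145 and 0.00441). The cyclin gene Ccnd1 fell by 0.62 on the log2 scale (adjusted p = 0.00481), and its 2 other probes were lower by the same call, at -0.66 each. Fos (-0.74) and Phlda1 (-0.35) were also called lower (adjusted p = 0.0442 and 0.0400). The call on Fos was lost without REST shRNA replicate 3 (-0.44), vector replicate 1 (-0.68), vector replicate 2 (-0.70) or vector replicate 3 (-0.84). That on Phlda1 was lost without REST shRNA replicates 1 (-0.319) or 2 (-0.316), or without vector replicates 1 (-0.34), 2 (-0.39) or 3 (-0.33). Egr1 was thus higher, as were Dusp6, Spry4 and Etv5, while Junb and Ier3 were lower, as were the ligands.

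**Figure D4:**
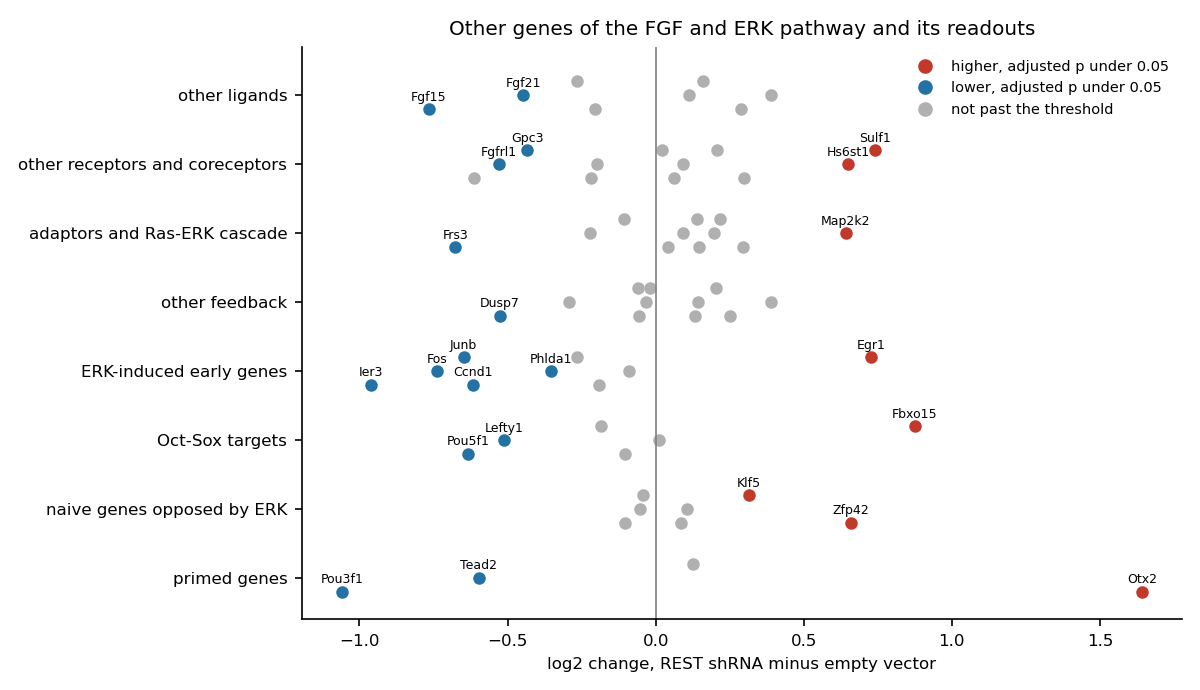
Log2 change (REST shRNA minus empty vector) of the tested genes of 8 further pathway lists, 1 point per gene at its brightest probe, coloured by the limma call (adjusted p under 0.05) and labelled where called. Nanog appears in 2 lists. Most adaptors and other feedback genes lie near 0, 5 of 9 early genes were called lower with Egr1 called higher, and Otx2 lies farthest to the right at 1.64.

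Fgf4 is a textbook target of the pluripotency factors Oct4 (gene Pou5f1) and Sox2, which bind its enhancer together. Among 6 genes with such a composite Oct-Sox site, 1 rose and 2 fell, with no call for 3 (median -0.14). The shares over all genes were 13.9% higher and 13.1% lower. Pou5f1 itself had log2 values of 11.42, 11.53 and 11.43 in REST shRNA samples, against 12.16, 12.14 and 11.98 in vector samples (log2 change -0.63 ± 0.10, SE, n = 3 per group; limma adjusted p = 0.00362). Its change was smaller than that of Fgf4 (-1.44), but the difference between them was not tested. The Nodal antagonist Lefty1 had -0.51 ± 0.16 (SE; adjusted p = 0.0396) and lost its call without REST shRNA replicates 1 (-0.54), 2 (-0.52) or 3 (-0.47), or without vector replicates 1 (-0.35) or 3 (-0.52). Fbxo15 rose 1.83-fold (adjusted p = 0.00112), and Sox2 (-0.19), Nanog (-0.10) and Utf1 (0.01) did not pass the test.

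Genes that mark either end of the FGF-driven exit from pluripotency were mixed. Among 7 tested naive genes that ERK activity is known to oppose, 2 rose and 0 fell, with no call for 5 (median 0.09). Beside this and the primed count below stand 13.9% higher and 13.1% lower over all genes. Zfp42, also known as Rex1, rose 1.58-fold (adjusted p = 0.00484), and Klf5 rose 1.24-fold (adjusted p = 0.0473), a call lost with any 1 array left out (0.28 to 0.34). Of 4 primed genes tested, 1 rose and 2 fell (median -0.23). The homeobox gene Otx2 rose 3.12-fold, and the POU factor gene Pou3f1 had log2 values of 6.59, 6.99 and 6.70 in REST shRNA samples, against 7.74, 7.96 and 7.75 in vector samples (log2 change -1.06 ± 0.13, SE, n = 3 per group; limma adjusted p = 0.00113). Tead2 had -0.60 ± 0.12 (SE; adjusted p = 0.00724), and the DNA methyltransferase Dnmt3b (0.13) did not pass the test.

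The genes whose profiles over the 6 arrays were most like that of Fgf4 were Igfbp4, Islr2, Mid1, Cenpx and Gadd45b. Their root mean square differences from it, after centring each gene, were between 0.07 and 0.16 on the log2 scale. Nearest to Dusp6 were Fam167a, Grip1, Zbtb22, Zfp532 and Sh3bp5l, with differences of 0.04 to 0.08. With 6 arrays in 2 groups, genes with a group difference of the same size score as alike.

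Markers of the labelled cell type were present, with all 7 ES cell markers tested, 1 higher and 1 lower. Their summed intensity was 60870 to 64408 in REST shRNA samples, against 65527 to 69762 in vector samples, with no overlap. Some markers of other cell types also differed between the groups, at low or moderate levels. Beside these counts and those below stand 13.9% higher and 13.1% lower over all genes. In 45.3% of all genes the groups did not overlap. The summed intensity of 10 fibroblast markers was 2122 to 2579.5 in REST shRNA samples, against 3474 to 4049.7 in vector samples. Of these markers 3 fell and 0 rose among 5 tested, and Col1a1, Col3a1, Postn and Fap were above background on no array. For 5 primitive streak and mesoderm markers, the tissue in which Fgf8 is normally active, the sum was 45 to 56.7 in REST shRNA samples and 81.8 to 105.2 in vector samples, with 1 lower among 2 tested. Mixl1, Eomes and Mesp1 were above background on no array. For 7 primitive endoderm markers, a tissue known for Fgfr2, the sum was 145.7 to 170.5 in REST shRNA samples and 127.1 to 127.7 in vector samples, with 1 higher among 2 tested. Gata4, Sox17, Sox7 and Foxa2 were above background on no array. For 6 trophoblast markers the sum was 6362 to 7357.5 in REST shRNA samples and 3154 to 4300.3 in vector samples. Only 2 of these were tested, Tfap2c, called higher (0.83), and Krt7, which was not called (-0.27). Elf5, Hand1 and Gata3 were above background on no array, so the sum does not stand for the set. For 6 neural markers the sum was 31.6 to 55.6 in REST shRNA samples and 78.7 to 97.9 in vector samples. The only neural marker tested, Nes, was called lower (-0.97), with Sox1, Pax6, Tubb3, Dcx and Neurog2 above background on no array. In bulk RNA, fewer cells of a type and less RNA per cell cannot be told apart, and the part of such cells in the FGF pathway values was not tested.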

How the data were processed

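Expression was measured on 6 Illumina bead arrays, 3 of REST shRNA and 3 of vector E14 cells, grouped by sample title. The deposited non-normalized table gives each probe's linear intensity on each array and, per the file headers, a detection p-value. That value rose with intensity, so 1 minus it was used. The authors also deposited a table of a linear ratio per probe and array, used as an alternative. What software made these tables is not given in the sources used here. Intensities were background-corrected (normal-exponential model, offset 16), quantile normalized and put on the log2 scale with limma 3.58.1 in R 4.3.3. Of 25697 deposited probes, of which 23978 have a gene symbol, 12406 had a detection p under 0.05 on at least 3 arrays and were tested with limma's moderated linear model, group as the only term, and Benjamini-Hochberg adjustment over all tested probes. The fit was tested on simulated data.

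Alternatives were uncorrected background, an offset of 50, scaling by medians, the authors' ratios, a filter that was absent or stricter (0.01 on each of the 6 arrays), a trended robust variance, weights per array, a replicate block, averaging a gene's probes, and dropping single arrays. The members, gene lists and tests were chosen with earlier results of these data known. Named genes outside the members are the called genes of each list, at most 6 by smallest p. For Fgf4 and Dusp6 they are the 5 genes with the nearest centred profile. Any gene named outside it was picked with its values in view. The number of arrays limits the precision. Promoter sequences come from RefSeq (GRCm38.p6), matched by symbol, and since the array tables name no build, no positions of probes are printed.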

Additional observations from a re-analysis of the deposited data

How the results depend on the processing

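The 7 called members were Fgf4 and Fgf8, lower, and Fgfr2, Dusp4, Dusp6, Spry4 and Etv5, higher. They kept their direction under every alternative that measured them. All but Fgfr2 kept their call wherever calls were recorded by gene. Calls of single members were not recorded under the trended robust variance. As the members were chosen on this contrast, these repeats on the same arrays are a description and carry no test. The stricter filter removed Fgf8, Fgfr1 and Fgfr2. The ligand minus feedback difference of -1.99 was -1.65 without background correction and -1.59 with an offset of 50, and it was -1.99 with the replicate block. Dropping single arrays gave a range of -2.10 to -1.84. Over all probes, 1590 calls were higher and 1619 lower (49.5% higher). The authors' ratios gave 2118 higher and 907 lower calls (70.0% higher), and a median change of 0.09. Of the further pathway genes, 10 rose and 9 fell there, in place of 8 and 15. The cause was not tested. Dropping single arrays left 1027 to 1355 higher and 991 to 1370 lower calls, with the low ends when vector replicate 2 was dropped, and 1029 higher and 1004 lower calls without REST shRNA replicate 3. The replicate block gave 1417 higher and 1463 lower calls. Arrays with the same replicate number had deviations that correlated at -0.06, 0.03 and 0.04, so they were treated as unpaired. Genes near the threshold (Fgf21, Gpc3, Frs3, Phlda1, Fos, Lefty1 and Klf5) lost their call under some of these settings, and Fgfrl1 and Dusp7 did so in the authors' ratios (adjusted p = 0.0506 and 0.0780). The members and called genes run under these settings kept their direction, and named genes that were not called outside the members were not run.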
